A study of Mus musculus with 22 samples.

Results

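The globin genes described here are the 7 mouse genes that encode the protein chains of hemoglobin: Hba-a1 and Hba-a2 (adult alpha), Hbb-bt and Hbb-bs (adult beta), Hba-x (embryonic zeta, of the alpha family), and Hbb-y and Hbb-bh1 (embryonic, of the beta family). They are listed by gene name, out of 47311 genes, and the list was drawn up with earlier results of these data known. RNA was sequenced from sorted bone marrow populations of mice on a C57BL/6 background (the floxed Arid1a line was backcrossed for 5 generations) in 22 libraries. The LT-HSC (long-term hematopoietic stem cell) libraries number 2 WT and 2 KO, whereas CMP, GMP and MEP (common myeloid, granulocyte-macrophage and megakaryocyte-erythroid progenitors) came from 3 WT mice (300, 305 and 309) and 3 KO mice (301, 304 and 308), each of which gave all 3 populations. KO mice were Arid1a f/f;Mx1-Cre+ and WT mice were Arid1a f/f;Mx1-Cre-, so that both carried the floxed Arid1a allele, in which loxP sites surround exon 9, and both received 5 injections of poly(I:C) at 8 to 14 weeks of age, with cells sorted 4 weeks later. Mx1-Cre is switched on by interferon and is not restricted to a blood lineage. LT-HSC libraries were made with an ultra-low-input kit and the others with a standard one, so that levels in LT-HSC and in the precursors are set side by side here without a test.

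Hemoglobin is a tetramer of paired alpha-like and beta-like chains, each holding a heme group, and red cells need both kinds of chain in balance. The alpha and beta clusters lie on different chromosomes, and in each the embryonic genes are used in the first red cells of the yolk sac and give way to the adult genes. In the bone marrow, globin transcription rises steeply as an MEP commits to the erythroid lineage, under transcription factors such as GATA1 and KLF1 and distant enhancers. ARID1A is the large DNA-binding subunit of the SWI/SNF chromatin remodeling complex.

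The 7 genes are protein coding and lie in 2 clusters in GRCm38. On chromosome 11, plus strand, Hba-x spans chr11:32276400-32278116, Hba-a1 chr11:32283511-32284465 and Hba-a2 chr11:32296489-32297298. On chromosome 7, minus strand, Hbb-bt spans chr7:103812524-103813996, Hbb-bs chr7:103826534-103828096, Hbb-bh1 chr7:103841637-103843164 and Hbb-y chr7:103851749-103853216. The adult genes occur as near-identical copies. Hba-a1 and Hba-a2 differ at 1 base of their 426-base coding sequence (stop codon left out), and Hbb-bt and Hbb-bs at 1 base of 441. Within the coding sequence, reads can be divided between 2 copies only at this 1 base. The 30 coding bases around it are shown with the differing base in capitals (GENCODE transcripts, coding bases 367 to 396 for alpha and 400 to 429 for beta):
Hba-a1: catgcctctctggaCaaattccttgcctct
Hba-a2: catgcctctctggaTaaattccttgcctct
Hbb-bt: gtggtggctggagtggcTgctgccctggct
Hbb-bs: gtggtggctggagtggcCgctgccctggct
Words of 31 bases were taken from 1 protein-coding transcript of each gene. Of those of Hba-a2, 91.0% also occur in Hba-a1, and 71.3% the other way round. Of those of Hbb-bs, 66.9% also occur in Hbb-bt, and 59.4% the other way round. None of these transcripts of the embryonic genes shares a 31-base word with one of the adult genes. The split between 2 copies is therefore uncertain, and the summed values (adult alpha, Hba-a1 + Hba-a2, and adult beta, Hbb-bt + Hbb-bs) carry the comparisons.

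RefSeq promoter windows (GRCm38.p6) were at hand for 6 of the 7 genes, Hbb-bh1 being the other. The 120 bases upstream of each start were searched on both strands for a CCAAT box (these letters), a CACCC box (these letters) and a TATA box (ATATAA), classical elements of globin promoters. The RefSeq start of each of the 6 lies inside its annotated gene span. The letters GATA, the core that GATA factors bind, were searched as well. The CACCC and the CCAAT letters can overlap, and did not in these genes. The windows below are shown because these genes rose together in KO CMP and MEP, and the capitals in each window mark the coding-strand motif it is named for. The CCAAT windows of the 2 alpha copies are the same sequence (Hba-a1 at chr11:32283572-32283601, Hba-a2 at chr11:32296389-32296418, plus strand), as are their CACCC windows (chr11:32283600-32283629 and chr11:32296417-32296446). The beta windows are on the minus strand, with Hbb-bt at chr7:103813981-103814010 and Hbb-bs at chr7:103827987-103828016 for CCAAT, and with Hbb-bt at chr7:103813995-103814024 and Hbb-bs at chr7:103828001-103828030 for CACCC:
Hba-a1 and Hba-a2 CCAAT: agcacaaaccagCCAATgagaactgctcca
Hba-a1 and Hba-a2 CACCC: caagggcgtgtcCACCCtgcctggaggaca
Hbb-bt CCAAT: ccctggcattggCCAATctgctcagagagg
Hbb-bs CCAAT: ccctggtaagggCCAATctgctcacacagg
Hbb-bt CACCC: cctgcagggtaaCACCCtggcattggccaa
Hbb-bs CACCC: tccgtagagccaCACCCtggtaagggccaa
All 4 adult promoters held a CCAAT box, a CACCC box and a TATA box on the coding strand. Of the 32851 RefSeq promoters, 21.3% held a CCAAT box on either strand in the same 120 bases, 31.7% a CACCC box and 4.5% a TATA box. All of them were held by 0.286%. The boxes were chosen as known elements of globin promoters, so their presence in the adult promoters is not a result of these data. The letters GATA occurred in Hbb-bs and Hba-x but not in the other 4 windows, and in 29.5% of all promoters. Hbb-bt held 2 further CCAAT boxes on the opposite strand, 80 and 36 bases upstream of the start, the first of them inside both windows shown and left in lower case, and another CACCC box 104 bases upstream. Among the embryonic genes, Hba-x lacked the CCAAT box and Hbb-y the TATA box in this window.

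The libraries each held 40.8 to 65.9 M counts. Arid1a, the targeted gene, ranged from 23.7 to 29.9 TPM (a transcript level per length, scaled to the same total in every library) in WT and 10.7 to 10.9 TPM in KO LT-HSC, from 57.7 to 78.3 and 42.9 to 46.5 TPM in GMP, from 77.5 to 84.1 and 70.8 to 80.4 TPM in CMP, and from 51.5 to 53.4 and 45.7 to 52.0 TPM in MEP. The groups overlapped in CMP and MEP. The log2 difference ± SE was -1.14 ± 0.27 in LT-HSC, -0.40 ± 0.11 in GMP, -0.22 ± 0.06 in CMP and -0.14 ± 0.05 in MEP, and all but that in LT-HSC passed an FDR (Benjamini-Hochberg adjusted p over all genes tested) of 0.1. The gene sum counts the whole transcript and not exon 9, so it does not measure excision. Genes of the surface markers used in sorting were compared with the gates in WT. Mean Fcgr3 was 269.4 TPM in GMP and 0.69 TPM in MEP, Cd34 was 440 TPM in CMP and 5.06 TPM in MEP, and Ly6a, the gene of Sca-1, was 558 TPM in LT-HSC and 5.34 TPM in CMP. In LT-HSC, sorted as CD34 and Flt3 negative, Cd34 was 125 TPM and Flt3 12.6 TPM. The study reported less CD34 on the surface of KO than of WT CMP and GMP, and more frequent MEP in KO marrow. Whether the gates held the same cells in both genotypes was not tested. The first WT LT-HSC library stood apart, with 27191 genes at 10 counts or more against 18504 to 22407 in the other 3.

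Adult globin RNA was found in all 22 libraries. In WT precursors the levels were low. Summed adult alpha was 52.0, 75.4 and 25.3 TPM in CMP of mice 300, 305 and 309, 76.5, 14.7 and 25.5 TPM in GMP, and 99.8, 312 and 89.5 TPM in MEP. Summed adult beta was 42.2, 51.9 and 24.1 TPM in CMP of the same mice, 56.9, 10.4 and 16.8 TPM in GMP, and 34.1, 113 and 31.3 TPM in MEP. Mouse 305 was thus highest in CMP and MEP and lowest in GMP, and mouse 300 was highest in GMP. In LT-HSC adult alpha was 2742 and 768 TPM in WT and 2510 and 2509 TPM in KO, and adult beta was 1104 and 349 TPM in WT and 1592 and 1376 TPM in KO. All 4 LT-HSC libraries lay above every precursor library in adult alpha. In adult beta the second WT LT-HSC library lay below KO CMP and KO MEP of mouse 304. The 4 adult genes together took 0.0025 to 0.102% of all TPM in the precursors and 0.112 to 0.41% in LT-HSC.

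Within WT precursors, in 1 fit over CMP, GMP and MEP that took each mouse as a block, adult alpha was higher in MEP than in CMP in 3 of 3 mice (log2 2.05 ± 0.47 SE, adjusted p = 0.00146 by edgeR) and higher in MEP than in GMP in 3 of 3 mice (4.48-fold, log2 2.16 ± 0.49, adjusted p = 0.00146). Adult beta had a MEP to CMP difference of log2 0.84 ± 0.47 (adjusted p = 0.134) and a MEP to GMP difference of log2 1.08 ± 0.50 (adjusted p = 0.0717). The MEP to GMP difference in adult beta was log2 0.08 without mouse 305, which supplied the highest WT MEP and the lowest WT GMP library, and the call was also lost without mouse 309 (log2 1.25, adjusted p = 0.136). Of the 4 adult genes tested, Hba-a1, Hba-a2 and Hbb-bt were called higher in MEP than in CMP (31.3% of the 19171 genes tested were called higher), and Hbb-bs was not (log2 0.57 ± 0.49). The Hbb-bt call (log2 1.18) was lost without mouse 305 (log2 0.64, adjusted p = 0.12). Between GMP and CMP 0 of the 4 adult genes were called by edgeR, with 0 at an unadjusted p under 0.05 and 0 called by DESeq2 (44.6% of genes called by edgeR), and the differences lay within their spread (adult alpha log2 -0.11 ± 0.48, adult beta log2 -0.25 ± 0.48, adjusted p of 0.887 and 0.737), and without mouse 305 these differences turned to 0.51 and 0.30. Without mouse 300 adult beta was lower in GMP by edgeR (log2 -1.09, adjusted p = 0.0764). The order of WT levels was thus MEP above CMP and GMP for adult alpha, with CMP and GMP not separated. Late erythroid genes followed another scale in the same contrast: 24 of 26 were called higher in MEP than in GMP, with a median log2 difference of 5.65 against -0.10 over all genes tested (31.6% called higher).

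**Figure D1:**
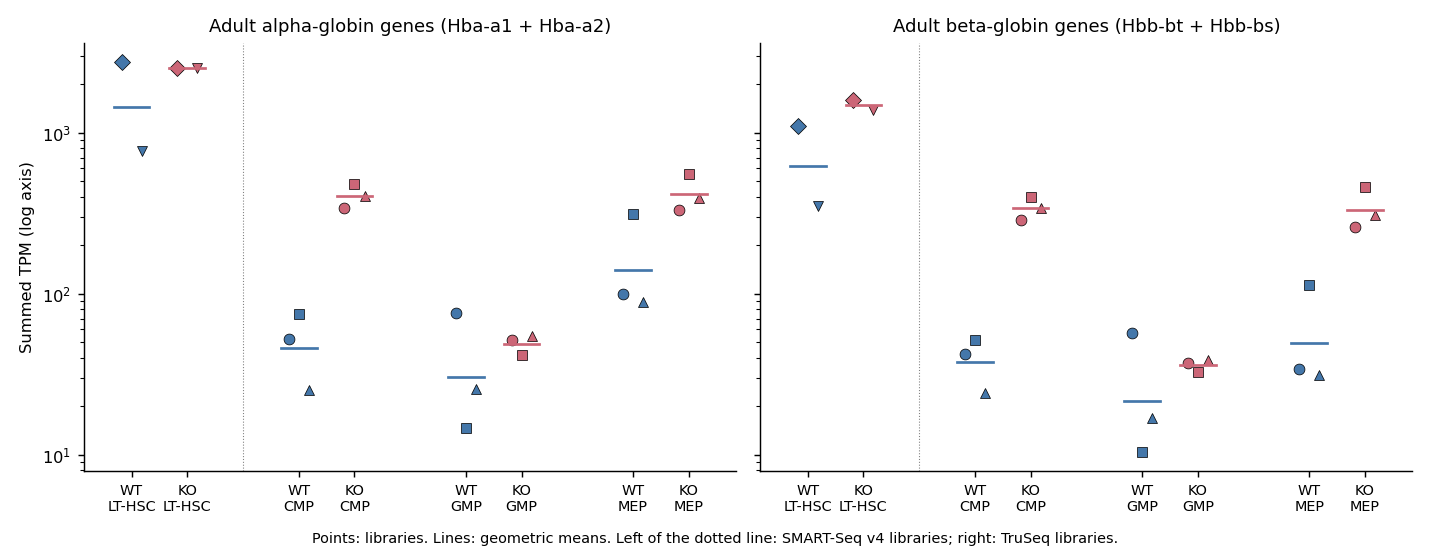
Summed TPM of the adult alpha genes (left) and the adult beta genes (right) on a log axis in each of the 22 libraries, WT in blue and KO in red, with horizontal lines at the geometric means and a shape for each mouse within its genotype. The 3 KO libraries lie above the 3 WT libraries in CMP and in MEP, and overlap them in GMP. A dotted line sets off the LT-HSC libraries, made with another kit, whose adult alpha lies above every precursor library.

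Deletion of Arid1a went with a large rise of all 4 adult globin genes in CMP. Adult alpha reached 343, 478 and 403 TPM in KO CMP of mice 301, 304 and 308, against 25.3 to 75.4 TPM in WT, and adult beta reached 289, 400 and 340 TPM against 24.1 to 51.9 TPM. Every KO library thus stood above every WT library, with no overlap in any of the 4 genes. Adult alpha rose 7.42-fold (log2 2.89 ± 0.32 SE, n = 3 against 3, adjusted p = 0.000505) and adult beta 8.17-fold (log2 3.03 ± 0.26, adjusted p = 0.00015). All 4 adult members were called higher, where 23.4% of the 17214 genes tested in CMP were called (1830 higher and 2200 lower). The single genes moved by like amounts, from log2 2.86 for Hba-a1 to 3.05 for Hbb-bt. Leaving out any 1 library kept the log2 change of adult alpha between 2.58 and 3.28 and that of adult beta between 2.77 and 3.29, with adjusted p at or below 0.003.

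In MEP the adult genes rose as well, with larger log2 changes for the beta genes than for the alpha genes. Hbb-bs stood at 19.1, 54.1 and 15.6 TPM in WT MEP of mice 300, 305 and 309 and at 172, 284 and 207 TPM in KO MEP of mice 301, 304 and 308. Hbb-bt stood at 15.0, 58.8 and 15.7 TPM in WT and 86.7, 177 and 99.7 TPM in KO. The alpha copies lay closer together, with Hba-a1 at 53.6, 184 and 49.4 TPM in WT and 209, 357 and 227 TPM in KO, and Hba-a2 at 46.2, 128 and 40.0 TPM in WT and 124, 196 and 164 TPM in KO. The groups did not overlap for Hbb-bs, Hbb-bt and Hba-a1, whereas for Hba-a2 WT mouse 305 lay within the KO range. Adult beta rose 5.68-fold (log2 2.51 ± 0.47, n = 3 against 3, adjusted p = 0.00693) and adult alpha 2.54-fold (log2 1.35 ± 0.45, adjusted p = 0.0691). All 4 members were called higher at FDR 0.1, where 29.4% of the 15777 genes tested in MEP were called (2202 higher and 2436 lower), and the values ran from log2 1.17 ± 0.41 for Hba-a2 to 2.86 ± 0.42 for Hbb-bs. The alpha call was not firm. DESeq2 gave an adjusted p of 0.143, and the call was lost without WT mouse 300 (log2 1.07) or 309 (1.06) or without KO mouse 304 (1.12) or 308 (1.38), whereas without WT mouse 305 it grew to log2 2.16. The beta call held without each library in turn, at log2 2.22 to 3.33.

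GMP was the precursor population in which no adult globin gene was called. Adult alpha was 51.3, 41.8 and 54.3 TPM in KO GMP of mice 301, 304 and 308, inside the WT range of 14.7 to 76.5 TPM, and adult beta was 37.1, 32.9 and 38.9 TPM, inside the WT range of 10.4 to 56.9 TPM. The log2 changes were 0.48 ± 0.47 and 0.54 ± 0.49 (adjusted p of 0.517 and 0.481). By edgeR 0 of the 4 members were called and 0 had an unadjusted p under 0.05, DESeq2 and limma called 0 as well, and 33.9% of the 16383 genes tested in GMP were called. This absence of a call rested on WT mouse 300. Without it adult alpha was higher in KO by log2 1.40 (adjusted p = 0.00336) and adult beta by 1.54 (adjusted p = 0.00231), and all 4 members were called. In that fit 4974 of the 16873 genes tested were called.

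In LT-HSC the KO libraries were high and alike, while the 2 WT libraries lay far apart. Adult beta was 1592 and 1376 TPM in KO and 1104 and 349 TPM in WT, so the groups did not overlap, and adult alpha overlapped (2510 and 2509 TPM in KO, 2742 and 768 TPM in WT). The log2 changes were 1.26 ± 0.46 for adult beta and 0.79 ± 0.47 for adult alpha (n = 2 against 2, adjusted p of 0.876 for both). Hbb-bt stood out among the single genes, at 790 and 685 TPM in KO against 314 and 191 TPM in WT (log2 1.77 ± 0.32, adjusted p = 0.15). By edgeR 0 of the 4 members were called and 2 had an unadjusted p under 0.05 (Hba-a1 and Hbb-bt), DESeq2 called 1 (Hbb-bt) and limma 0, where 0.0792% of the 22733 genes tested were called. Without the first WT library, which stood apart in the number of genes detected, adult alpha was log2 1.71 and adult beta log2 2.19 higher in KO. Without the second WT library adult beta was log2 0.68 higher and adult alpha log2 0.21. Each of these fits holds a single WT library, which is assumed to vary as the KO libraries do. They carry no check on the spread among WT mice, and their calls are not given.

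**Figure D2:**
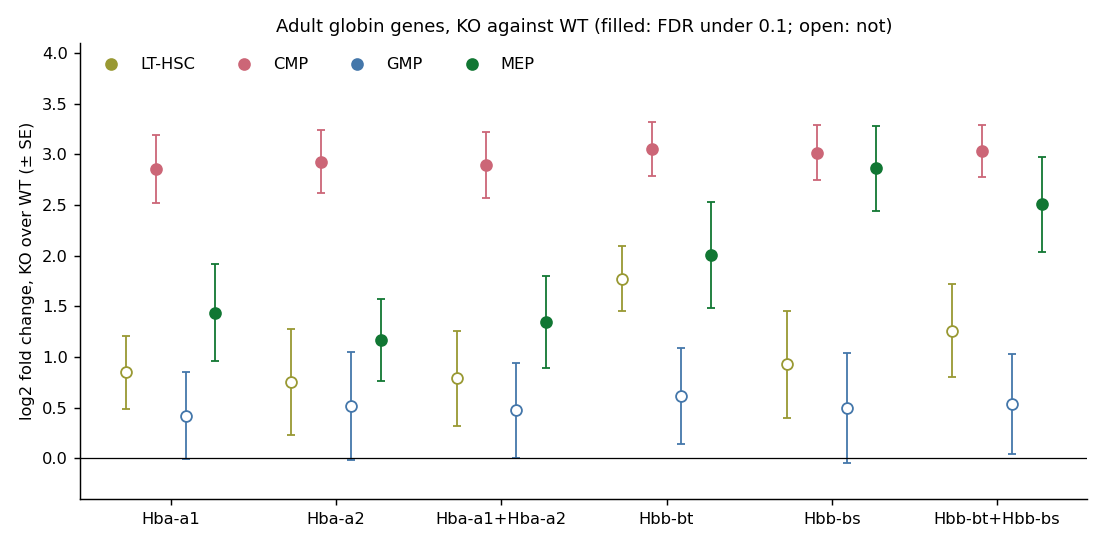
Log2 fold change of KO over WT with its SE (edgeR) for the 4 adult genes and the 2 sums in LT-HSC, CMP, GMP and MEP, filled where the FDR was under 0.1 and open where it was not. In CMP all 4 genes lie near log2 3, in MEP the beta genes lie above the alpha genes, and in GMP and LT-HSC no value passes.

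The change itself was compared between populations in 1 fit of the 18 precursor libraries. The KO change in GMP was smaller than in CMP for adult alpha (difference in log2 change -2.52 ± 0.66, adjusted p = 0.02) and for adult beta (-2.52 ± 0.66, adjusted p = 0.0197). All 4 members were called, where 19.7% of the 19171 genes tested were called. Of the single genes, the Hba-a2 call was lost without mouse 300 (-1.59), 304 (-2.30) or 309 (-2.32) and the Hbb-bs call without mouse 309 (-2.36), and Hbb-bt moved from -2.46 to -1.49 without mouse 300. The adult alpha call was lost without mouse 309 (-2.36, adjusted p = 0.105), and the beta call held without each mouse in turn, at -3.07 to -1.69. The KO change of adult beta was also larger in MEP than in GMP (2.0 ± 0.67, adjusted p = 0.0521, 24.9% of genes called), a call that was lost when any mouse other than 305 was left out, at log2 0.89 without mouse 300 and between 1.70 and 2.16 without mouse 301, 304, 308 or 309. Between MEP and CMP neither sum passed (adult alpha -1.55 ± 0.62, adjusted p = 0.168, and adult beta -0.52 ± 0.63, adjusted p = 0.737, 12.3% of genes called). The contrasts share libraries and are not independent of each other.

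The ratio of adult alpha to adult beta RNA was lower in KO than in WT MEP, with no overlap of the libraries. In WT MEP the ratio of summed TPM was 2.93, 2.76 and 2.86 in mice 300, 305 and 309, and in KO MEP it was 1.29, 1.199 and 1.28 in mice 301, 304 and 308. The groups lay far apart, and the difference between genotypes (log2 -1.18) was many times the spread within either (SD 0.04 in WT and 0.06 in KO). In CMP the ratios were 1.23, 1.45 and 1.05 in WT and between 1.18 and 1.19 in KO (log2 difference -0.06), and in GMP they were 1.34, 1.41 and 1.52 in WT and 1.38, 1.27 and 1.39 in KO (-0.08). Both pairs of groups overlapped. In LT-HSC the ratios were 2.48 and 2.20 in WT and 1.58 and 1.82 in KO (-0.46), without overlap. An exact two-sided permutation test gave p = 0.1 in MEP and p = 0.333 in LT-HSC, the smallest p that 3 against 3 and 2 against 2 libraries allow, and p = 0.7 in CMP and 0.4 in GMP. Adjusted over the 12 tests of ratios and shares, these exact permutation p-values were 0.6, 0.96, 1.0 and 0.96. On estimated counts in place of TPM the MEP ratio was 2.35 in WT and 1.05 in KO, so that the size of the ratio differed between the units and the difference between genotypes (log2 -1.16) hardly moved.

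**Figure D3:**
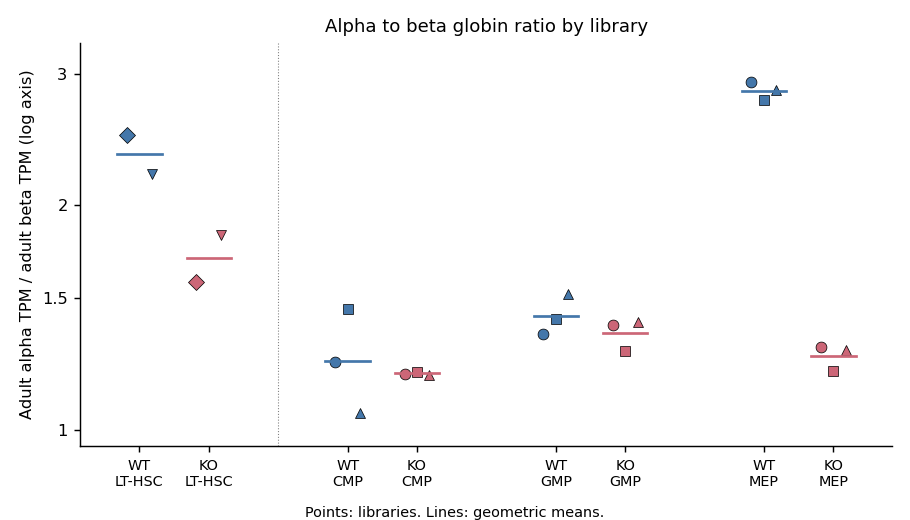
Ratio of summed adult alpha TPM to summed adult beta TPM in each library on a log axis, with lines at the geometric means. WT MEP libraries sit between 2.76 and 2.93 and KO MEP libraries between 1.199 and 1.29, while WT and KO overlap in CMP and GMP.

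The division between copies, uncertain because the copies share sequence, is described by population without a test between populations. Hba-a1 held 53.7 to 59.0% of adult alpha TPM in WT MEP and 58.1 to 64.6% in KO MEP, against 41.4 to 43.7% in WT CMP and 38.9 to 45.0% in KO CMP, so that it was higher in MEP than in CMP in each of the 6 mice. Hbb-bt held 44.0 to 52.1% of adult beta TPM in WT MEP and 32.6 to 38.4% in KO MEP, a mean difference of -13.9 percentage points without overlap (exact two-sided permutation p = 0.1, the smallest possible, and 0.6 adjusted over the 12 tests). Both shares overlapped between genotypes in CMP, GMP and LT-HSC, and so did that of Hba-a1 in MEP (5.80 percentage points higher in KO, exact permutation p = 0.2, adjusted 0.8). Hbb-bs-202, a retained-intron transcript of Hbb-bs, received 2.59 to 6.42% of adult beta counts in WT MEP and 8.31 to 8.62% in KO MEP, and 4.02 to 9.88% in WT CMP against 3.89 to 5.70% in KO CMP. This transcript was singled out after its values were seen and is given without a test.

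The embryonic genes stayed at or near 0 in both genotypes. Hbb-bh1 had 0 counts in all 18 precursor libraries, which allows up to 3 counts, or 0.0494 to 0.0723 CPM (counts scaled to library size) in each. Hba-x had at most 2 counts and Hbb-y at most 3 counts in any precursor library, and the libraries with any count were of KO CMP mouse 304, KO GMP mouse 304, WT MEP mouse 305 and the KO MEP mice. In LT-HSC, Hbb-bh1 had 15 and 1 counts in WT and 10 and 5 in KO, Hbb-y had 19 counts in the first WT library and 0 in the other 3, and Hba-x had 12 counts in the second WT library and 0 in the other 3. None of the 3 genes passed the filter on low counts, so no fold change is given. Embryonic counts were at most 0.0692% of all globin counts in any library. Hbb-bh2, a further beta-cluster gene, was at 0 in every precursor group.

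Genes beside the clusters were taken by distance. Of 38 measured genes within 150 kb of a member, 7 passed the filter in CMP, 5 in GMP and 6 in MEP. In CMP 2 were called higher and 2 lower, where 23.4% of all genes tested were called. In GMP 0 were called higher and 2 lower (33.9% of all genes), and in MEP 1 higher and 2 lower (29.4%). Hbq1b, a theta-globin gene of the alpha cluster with a near-identical copy (Hbq1a), rose with the adult genes, from at most 3 counts in WT CMP to at most 28 in KO CMP (log2 3.45 ± 0.69, adjusted p = 0.00906) and from at most 10 to at most 36 in MEP (log2 2.0 ± 0.48, adjusted p = 0.0196). In LT-HSC it had 0 counts in both WT libraries and at most 43 in KO, and was not called (adjusted p = 0.807). Nprl3, whose introns hold the main alpha-globin enhancers, changed little, by log2 0.24 ± 0.08 in CMP and -0.31 ± 0.06 in MEP (adjusted p of 0.066 and 0.00597). Sh3pxd2b, a podosome adaptor, was lower in KO in CMP (log2 -1.13 ± 0.09), GMP (-2.33 ± 0.17) and MEP (-0.82 ± 0.16), and Rhbdf1, a rhomboid pseudoprotease, was lower in CMP (-1.11 ± 0.31) and GMP (-1.26 ± 0.37). Of the 9 listed genes that flank the alpha cluster, 8 were tested in CMP (2 higher, 1 lower), 6 in GMP (1 lower) and 7 in MEP (2 higher, 1 lower). Among other globin superfamily genes, Adgb was tested in CMP (not called) and GMP (log2 -0.80 ± 0.27, adjusted p = 0.0547), and none was tested in MEP.

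Heme synthesis and iron supply genes moved with the globins in CMP and MEP. Of 21 measured genes, 14 were called higher and 1 lower in CMP (median log2 0.65, against -0.0027 over all genes tested). In MEP 14 were higher and 2 lower (median 0.47), and in GMP 8 were higher and 3 lower (median 0.08). In LT-HSC none was called. For comparison, 23.4% of all genes tested were called in CMP, 29.4% in MEP, 33.9% in GMP and 0.0792% in LT-HSC. Alas2, the erythroid enzyme that starts heme synthesis, rose most, from a mean of 0.84 to 5.04 TPM in CMP (log2 3.02 ± 0.30) and from 1.46 to 10.5 TPM in MEP (2.97 ± 0.28). In GMP it stood at 0.61 TPM in WT and 0.65 TPM in KO. Cpox, a later enzyme of the pathway, rose by log2 1.46 ± 0.20 in CMP and by 0.75 ± 0.12 in MEP. Flvcr1, a heme exporter, was the gene called lower in CMP (log2 -0.38 ± 0.07), and with Fech, the enzyme that inserts iron, it made up the 2 genes called lower in MEP (-0.60 ± 0.07 and -0.17 ± 0.06). These were named after their values were seen.

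Late erythroid cell markers rose broadly in CMP and in part in MEP. Of 26 genes, 20 were called higher and 0 lower in CMP (median log2 0.86). In MEP 15 were higher and 1 lower (median 0.42), and in GMP 7 were higher and 4 lower (median -0.02). Over all genes tested, 23.4% were called in CMP, 29.4% in MEP and 33.9% in GMP. Slc4a1, the band 3 anion exchanger of the red cell membrane, rose from a mean of 0.64 to 4.25 TPM in CMP (log2 2.73 ± 0.58) and from 0.65 to 5.84 TPM in MEP (3.12 ± 0.55). Car1, an erythroid carbonic anhydrase and the most abundant gene of the list in MEP, went the other way there, from 4499 to 2172 TPM (log2 -1.09 ± 0.19). The summed list ranged from 2088 to 2223 TPM in WT CMP and 3081 to 3542 TPM in KO CMP, and from 9730 to 10857 TPM in WT MEP and 8807 to 9697 TPM in KO MEP. No gene of the list was at 0 in every library of a group. In these bulk libraries more cells of a type and more RNA per cell cannot be told apart, and the part of erythroid-committed cells in the globin result was not tested. In WT GMP, Slc4a1 and Alas2 had means of 0.55 and 0.61 TPM, beside adult alpha of 14.7 to 76.5 TPM. Both genes were also low in WT CMP (0.64 and 0.84 TPM) and in WT MEP (0.65 and 1.46 TPM). The summed list still ranged from 445 to 545 TPM in WT GMP, with 17 of the 26 genes at a mean of 1 TPM or more.

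**Figure D4:**
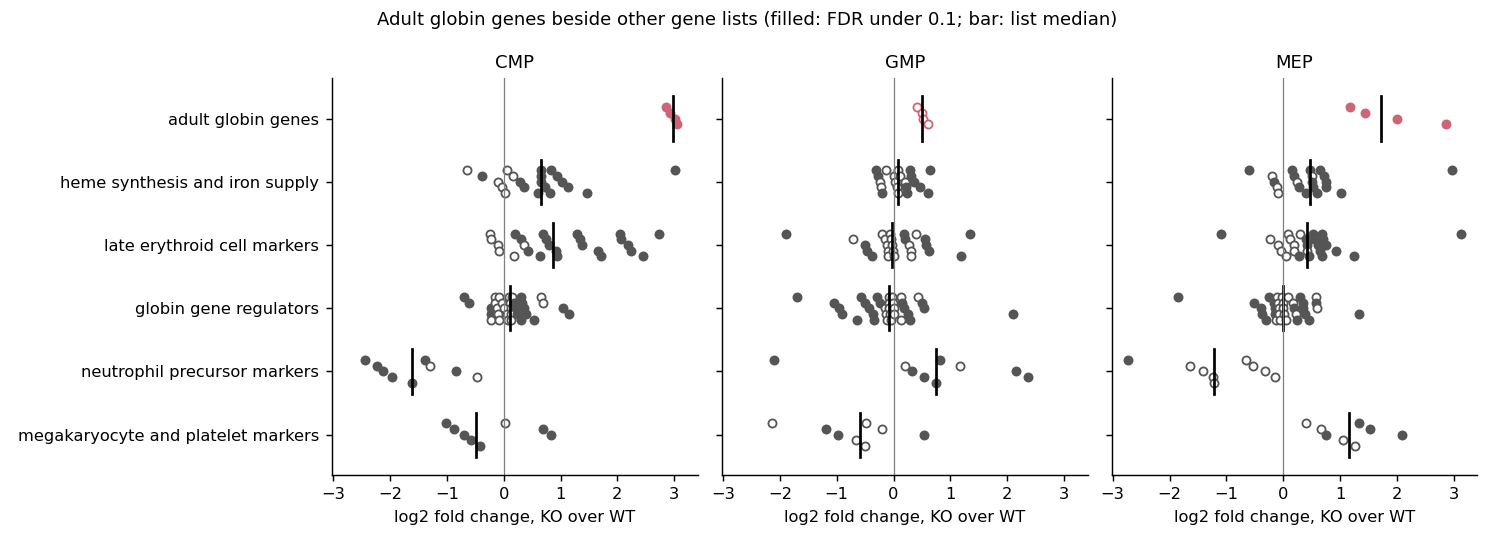
Log2 fold change of KO over WT of each measured gene (points, filled where the FDR was under 0.1) in CMP, GMP and MEP, for the adult globin genes and 5 gene lists, with bars at the list medians. In CMP and MEP the adult globin genes and Alas2 lie to the right of most genes of the other lists, and in GMP the globin genes are open points near log2 0.5.

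Regulators of globin genes showed no common direction. Of 34 genes tested, 11 were called higher and 4 lower in CMP (median log2 0.12). In MEP 9 were higher and 9 lower (median -0.0044), and in GMP 7 were higher and 12 lower (median -0.07). The share called over all genes tested was 23.4% in CMP, 29.4% in MEP and 33.9% in GMP. Klf1, the erythroid factor that binds CACCC boxes, rose from a mean of 66.0 to 157 TPM in CMP (log2 1.15 ± 0.13) and from 353 to 465 TPM in MEP (0.37 ± 0.07), and was 3.82 and 3.46 TPM in WT and KO GMP. Klf3, a related repressor, rose by log2 1.04 ± 0.08 in CMP and 0.57 ± 0.05 in MEP and was lower in KO GMP (-0.34 ± 0.07). Gata2, which precedes GATA1 in erythroid commitment, was lower in CMP (log2 -0.69 ± 0.07), GMP (-1.70 ± 0.11) and MEP (-1.84 ± 0.11), and Sox6, a cofactor in silencing of embryonic globins, was higher in MEP (1.33 ± 0.09), lower in GMP (-0.58 ± 0.22) and not called in CMP (0.66 ± 0.28). Bcl11a, a repressor of embryonic beta-like genes named here for its role and after its values were seen, was higher in CMP (log2 0.39 ± 0.05), lower in GMP (-0.36 ± 0.08) and not called in MEP (-0.07 ± 0.05).

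Markers of other lineages were counted as well. Of all genes tested, 23.4% were called in CMP, 33.9% in GMP and 29.4% in MEP. In lists this short, a count near these shares is not a result about the list. Of 9 neutrophil precursor markers, 7 were lower in KO CMP, where their summed level fell from a WT range of 4195 to 4887 TPM to 1743 to 2678 TPM, 6 were higher and 1 lower in GMP, and 1 was lower in MEP. Of 8 megakaryocyte and platelet markers, 2 were higher and 5 lower in CMP (sums of 781 to 1147 TPM in WT and 620 to 645 TPM in KO), and 4 were higher and 0 lower in MEP (31.5 to 54.8 TPM in WT and 84.2 to 107 TPM in KO). Of 7 stem cell markers tested in CMP 2 were higher and 2 lower, and of 6 tested in MEP 2 were higher. Of the macrophage markers, 1 of 9 was higher and 1 lower in CMP and 1 of 5 higher in MEP. Of the B cell markers, 1 of 6 was lower in CMP and 0 of 3 were called in MEP by edgeR (0 at an unadjusted p under 0.05), and of the 6 sort markers 1 was higher and 1 lower in CMP and 1 lower in MEP. In GMP, where no globin gene was called, 1 stem cell marker was higher and 4 lower of 7, 1 macrophage marker higher and 4 lower of 9, 1 megakaryocyte and platelet marker higher and 2 lower of 8, and 1 sort marker higher and 2 lower of 6, and 0 of 6 B cell markers were called by edgeR (0 at an unadjusted p under 0.05). The part of these markers in the globin result was not tested. In LT-HSC 0 of the 139 genes tested from all the lists were called by edgeR, and 21 had an unadjusted p under 0.05. Klf1 had means of 256 TPM in WT and 224 TPM in KO LT-HSC, between its levels in WT CMP and WT MEP, beside stem cell marker sums of 534 to 1089 TPM against at most 70.8 TPM in any CMP library.

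The genes whose levels ran most like the adult globins over the 18 precursor libraries were named by Pearson correlation of log2(TPM + 1) among 13762 genes. Beside adult alpha they were Smu1, Hexim2, Cr1l, Tent5c and Ints14 (r of 0.91 to 0.92), and beside adult beta they included Nuf2, Alas2, Ifi35 and Rsad2 (r of 0.91 to 0.93). The 18 points come from 6 mice and 6 groups, so that the values describe a shared order of the groups. Alas2 and Tent5c moved over a wide range, Tent5c from a mean of 0.86 TPM in WT GMP to 11.9 TPM in KO MEP, whereas the means of Smu1 ran from 79.5 to 109 TPM. Ifi35 and Rsad2 are interferon-induced genes, and the mean of Rsad2 was 2.58 TPM in WT and 7.30 TPM in KO CMP, and 1.49 and 5.79 TPM in MEP. Adult alpha and adult beta correlated with each other at r = 0.96.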

How the data were processed

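RNA-seq was made from 22 libraries of sorted bone marrow cells. The authors quantified reads with kallisto against the mouse transcriptome (GRCm38/mm10) and deposited estimated counts and TPM per transcript. Of 115088 transcripts 99.2% were paired with a gene, and both units were summed per gene (47311 genes), leaving at most 0.3628% of counts unpaired. Summed estimated counts were rounded and tested with edgeR 4.0.16 (quasi-likelihood, TMM, filterByExpr, FDR 0.1 over all genes), per population and, for population contrasts, in 1 fit over CMP, GMP and MEP with each mouse a block. Copies were also summed before fitting. Ratios and shares had exact permutation tests. DESeq2 1.42.0, limma 3.58.1 on log2(TPM + 1), other scalings and filters, and leaving out each library were alternatives. The fits were also run on simulated counts that held no mouse effect, and the outcome is not reported here. Within a precursor group each library came from its own mouse, and the libraries held 40.8 to 65.9 M counts. Members and gene lists were chosen with earlier results of these data known. Beyond the members, up to 4 called genes per list and population with the largest absolute change were named, with exceptions stated. Some genes that this rule names are not reported here. Ahsp and Hba-ps3 were not analysed here. LT-HSC and precursor libraries were made with different kits and were not tested against each other.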

Additional observations from a re-analysis of the deposited data

Results flagged for a closer look

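The change between KO and WT differed between populations for all 4 adult genes, as tested by the interaction term of 1 edgeR fit of the 18 precursor libraries. Between GMP and CMP the difference in log2 change was -2.53 for Hba-a1, -2.51 for Hba-a2, -2.46 for Hbb-bt and -2.56 for Hbb-bs, with -2.52 for adult alpha and -2.52 for adult beta. Between MEP and GMP it was 2.38 for Hbb-bs and 2.0 for adult beta. The Hbb-bs value ran from 1.29 without mouse 300 to 3.40 without mouse 305, and its call was lost without mouse 300, 304 (2.04) or 309 (2.17), with adjusted p up to 0.199 by edgeR. The GMP values rest in part on WT mouse 300, whose GMP library held the most adult globin RNA of the 6 GMP libraries. Without that mouse the GMP to CMP difference was -1.71 for adult alpha and -1.69 for adult beta, and the MEP to GMP difference of adult beta was 0.89 (adjusted p = 0.297).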

How the results depend on the processing

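The rises in CMP kept their direction and call under each alternative run. Adult alpha in MEP was not called by DESeq2 (1.34, adjusted p = 0.143). Without a filter on low counts the KO change of adult alpha differed between MEP and CMP (-1.55, adjusted p = 0.0491), adult beta was called higher in WT MEP than in CMP (0.87, adjusted p = 0.0521), and 2 members each were called for the MEP to CMP and MEP to GMP differences. In LT-HSC 1 member was called by DESeq2, without the filter and with a replicate block. Hba-a2 between WT GMP and CMP turned to -0.12 with no replicate block, -0.042 without the filter and -0.0037 by DESeq2. The cause of these shifts was not tested.

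Leaving out each library in turn moved the KO log2 change of adult alpha over 0.078 to 1.40 in GMP, 0.21 to 1.71 in LT-HSC and 1.06 to 2.16 in MEP. That of adult beta moved over 0.13 to 1.54, 0.68 to 2.19 and 2.22 to 3.33 in the same order. In GMP 0 to 4 members were called in these fits, and in MEP 2 to 4. For the GMP to CMP difference of the KO change, adult alpha ran from -3.14 to -1.71 and 2 to 4 members were called. For MEP to CMP, adult alpha ran from -1.79 to -1.26, Hbb-bs from -0.45 to 0.21, and 0 to 3 were called. For MEP to GMP, adult alpha ran from -0.075 to 1.88, adult beta from 0.89 to 3.01, Hba-a2 from -0.37 to 1.66, and 0 to 4 were called. In WT, GMP to CMP ran from -0.93 to 0.51 for adult alpha, -1.09 to 0.30 for adult beta, -1.03 to 0.29 for Hba-a1, -0.92 to 0.73 for Hba-a2 and -0.98 to 0.48 for Hbb-bs, with 0 to 2 called. Adult beta ran from 0.38 to 1.15 for MEP to CMP and 0.083 to 2.24 for MEP to GMP, where Hbb-bs ran from -0.30 to 1.85. The Hbb-bt share differed by -2.93 to 1.6 percentage points in CMP, -6.69 to 7.02 in GMP and -5.22 to 21.2 in LT-HSC, the Hba-a1 share by -6.66 to 0.78 in GMP and -12.0 to 5.70 in LT-HSC, and the log2 ratio in CMP by -0.17 to 0.062.

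Pairing WT and KO libraries by the order of the study's columns, which the labels do not give, is a hint from the data only (correlations of deviations of 0.18 to 0.67 in precursors and 0.16 in LT-HSC). In MEP, WT mouse 300 correlated more with KO mouse 308 (0.41), outside its pair, than with its pair, KO mouse 301 (0.18). In LT-HSC, with 2 libraries per group, the other pairing must give the same value with the opposite sign (-0.16). With that replicate block adult alpha and beta changed by 2.96 and 3.06 in CMP, 0.77 and 0.86 in GMP, 1.54 and 2.69 in MEP and 0.96 and 1.44 in LT-HSC, and no call of a sum changed. Over all genes, LT-HSC gave 18 calls, 286 without the filter, 248 by DESeq2, 1 by limma and 115 with the block, and the median log2 change there was -0.158, and -0.66 without the filter or by DESeq2. In the precursors no library held more than 3 counts of an embryonic gene, so a difference between genotypes was not detectable at this depth.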
